A study of Gallus gallus with 2 samples.

Results

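The Sonic hedgehog pathway genes described here are SHH, PTCH1, GLI1, GLI2, GLI3, HHIP, SMO, BOC and GAS1. These 9 genes were taken by name, ignoring case, from gene-level tables of 17108 annotated rows, which give 16736 genes once rows of the same symbol are summed. All 9 were found, each in 1 row, and 0 were absent. Messenger RNA had been sequenced in 2 libraries of chick limb bud, dissected at Hamburger-Hamilton stage 22 on day 4 and cut into small pieces. One library came from pieces kept for 4 h at 37 °C with thalidomide at 40 µg/ml. Thalidomide is a drug known for limb defects in exposed embryos, and its cellular target is cereblon, which recruits proteins to a ubiquitin ligase. The other came from pieces kept for the same time with vehicle, 5% DMSO. The labels do not say whether the thalidomide pieces also received DMSO, how many embryos were pooled, or whether forelimb and hindlimb buds were mixed. With 1 library per treatment there is no replicate check and no test between treatments, and every value describes these 2 libraries.

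SHH is a secreted signal made by the polarizing region, a patch of mesenchyme at the posterior margin of the limb bud, and it patterns the digits and sustains outgrowth. It binds the receptor PTCH1 with help from the coreceptors BOC and GAS1, and binding relieves SMO, a membrane protein that PTCH1 otherwise holds inactive. SMO then acts through the primary cilium on the transcription factors GLI2 and GLI3, which repress target genes without the signal and activate them with it. PTCH1, GLI1 and HHIP are themselves targets of the pathway, and PTCH1 and HHIP also bind the ligand and limit its spread.

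Levels are FPKM, fragments counted per kilobase of annotated transcript and scaled by depth, which can be compared between genes as far as the annotated transcript lengths are right. The deposited table gives each value a lower and an upper confidence limit, and these cover the error of counting and assigning fragments in that library but not the difference between tissue samples. Read as 2 SD of a count, the limits give an inferred fragment number per gene, and these sum to 23280002 with thalidomide and 23361629 with vehicle, which may be too low where uncertain assignment widened the limits. The FPKM values summed to 384280 with thalidomide and 426632 with vehicle, and mitochondrially encoded transcripts took 11.3% of the thalidomide total and 8.94% of the vehicle total. Limb markers were present in both libraries: the mesenchymal factor PRRX1 had 185 FPKM with thalidomide and 217 with vehicle, the forelimb factor TBX5 had 26.4 with thalidomide and 22.5 with vehicle, and the hindlimb factor PITX1 had 114 with thalidomide and 119 with vehicle.

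The 9 genes spanned a wide range of levels in the same order in both libraries. SMO was the most abundant, BOC and GAS1 came next, followed by GLI2, GLI1, GLI3, PTCH1, HHIP and SHH. Within each library the confidence limits of every pair of neighbours in this order stood apart. The place of GAS1 in it is uncertain, since its locus shares bases with another annotated locus.

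**Figure D1:**
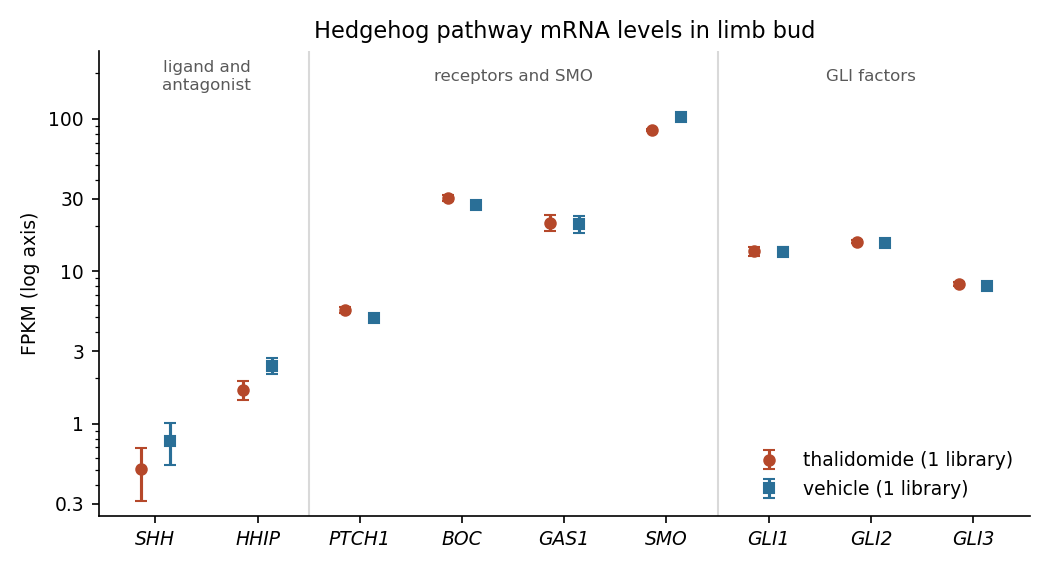
Level of each member in FPKM (log axis) in the thalidomide library (circles) and the vehicle library (squares), with the deposited lower and upper limits as bars. SMO lies near 100 FPKM and SHH below 1 FPKM in both libraries, and the limits of the libraries stand apart for HHIP, PTCH1, BOC and SMO.

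SHH, the ligand, was the least abundant member. It had 0.505 FPKM (limits 0.314 to 0.696) with thalidomide and 0.777 FPKM (0.535 to 1.02) with vehicle. The lower value is that of the thalidomide library, but the limits overlap. They rest on 28 inferred fragments with thalidomide and 41 with vehicle, and they lie 37.8% away from the value with thalidomide and 31.1% with vehicle, so no difference in SHH was detectable at this depth. Its log2 ratio, thalidomide over vehicle, was −0.24 ± 0.13, where 1 was added to each FPKM and ± is the error propagated from the deposited limits. Adding 1 shrinks the ratio of so low a gene, and with 0.1 added it was −0.54. In bulk tissue, fewer cells of a type and less RNA per cell cannot be told apart. SHH lies on chromosome 2 from 8080091 to 8089855 in galGal4, the chicken assembly named in the submitters' processing notes. An unnamed annotated locus that overlaps it had 0.0992 FPKM with thalidomide and is listed at 0 with vehicle.

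Other tissues of the embryo, the notochord and the floor plate of the neural tube, also make SHH. Of 9 marker genes listed for them, 5 matched a gene in the files and 4 reached 1 FPKM, with 0 of the 5 listed at 0 in both libraries. Their summed level was 21.9 FPKM with thalidomide and 23.9 with vehicle. Rescaled to a common FPKM total, the sum was 23.1 with thalidomide and 22.7 with vehicle, so its direction turns with the scaling. Over the 10905 genes with at least 1 FPKM in at least 1 library, deposited limits stood apart as higher with thalidomide for 15.5%. They did so as lower for 26.9%. Among the 5 markers, limits stood apart as higher for 1 and as lower for 3, a count not taken on the common total. The higher one was T (brachyury), a factor made in notochord though not only there, with 5.51 FPKM with thalidomide and 4.43 with vehicle. The lower ones were the notochord homeobox gene NOTO, listed in the files as GNOT1, with 1.69 FPKM with thalidomide and 2.396 with vehicle, the floor plate protein SPON1 with 11.8 FPKM with thalidomide and 13.1 with vehicle, and the secreted BMP antagonist CHRD with 2.86 FPKM with thalidomide and 3.86 with vehicle. FOXA1, FOXA2, NKX2-2 and NKX2-9 matched no gene in the files by symbol or former symbol, so no values are given for them. Whether rows without a symbol hold them was not tested. The part of such tissue in the SHH value was not tested.

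HHIP, a membrane-bound antagonist that sequesters the ligand, had the lowest ratio of the 9 genes. Its level was 1.67 FPKM (1.44 to 1.91) with thalidomide, from 199 inferred fragments, and 2.41 FPKM (2.11 to 2.71) with vehicle, from 260. The limits stand apart, with the thalidomide library lower, and the log2 ratio was −0.35 ± 0.09, or 1.28-fold lower on the FPKM + 1 scale. Of the 10905 genes with at least 1 FPKM in at least 1 library, 6.69% had a lower ratio than HHIP, and of the 1514 with a mean level within 1.5-fold of its own, 5.02% did. After both libraries were rescaled to a common FPKM total, its ratio was −0.25 and its limits overlapped, so the separation depends on the scaling. HHIP lies on chromosome 4 from 30294675 to 30371237, and a small annotated locus inside that span, uc_338, had 0.589 FPKM with thalidomide and 0.559 with vehicle.

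PTCH1, the receptor and a target of the pathway, was higher with thalidomide. It had 5.56 FPKM (5.32 to 5.81) with thalidomide and 4.97 FPKM (4.73 to 5.21) with vehicle, a log2 ratio of 0.14 ± 0.04. PTCH1 rested on 2131 inferred fragments with thalidomide and 1721 with vehicle. The gap between the limits is narrow, and 71.0% of 2481 genes with a mean level within 1.5-fold of its own had a lower ratio. Rescaled to a common FPKM total the ratio was 0.26, and the limits stood apart. PTCH1 lies on chromosome Z from 41628098 to 41693685, and no other annotated locus overlaps it.

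BOC, a coreceptor of the immunoglobulin superfamily, was also higher with thalidomide. It had 30.4 FPKM (29.0 to 31.9) with thalidomide and 27.1 FPKM (25.8 to 28.4) with vehicle, and these limits stand apart. BOC rested on 1845 inferred fragments with thalidomide and 1770 with vehicle, nearer each other than its FPKM, for a reason not tested. Its log2 ratio of 0.16 ± 0.05 was the highest of the members, above that of 89.7% of 1773 genes with a mean level within 1.5-fold of its own. Rescaled to a common FPKM total it was 0.31, and the limits stood apart. BOC lies on chromosome 1 from 82675889 to 82696983, and the end of the locus of CFAP44, at 0.0857 FPKM with thalidomide and 0.0733 with vehicle, reaches into it.

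GAS1, a coreceptor tethered to the cell surface by a lipid anchor, had 20.9 FPKM (18.3 to 23.4) with thalidomide and 20.5 FPKM (17.9 to 23.1) with vehicle. The limits overlap over nearly their whole width, and the log2 ratio was 0.03 ± 0.12, or 0.17 rescaled to a common FPKM total. This value is uncertain because of its annotation. The GAS1 locus spans 933 bases on chromosome Z, from 40920596 to 40921528, and shares 918 of them with an unnamed locus, ENSGALG00000026583, from 40920611 to 40921621. That second locus had 12.9 FPKM with thalidomide and 22.8 with vehicle, a log2 ratio of −0.77 ± 0.13. The sources used here do not say whether the counting used strand, so fragments of the 2 loci cannot be told apart. With both summed, an alternative chosen after the data were seen, the level was 33.8 FPKM (30.5 to 37.0) with thalidomide and 43.3 FPKM (39.6 to 47.0) with vehicle, and the ratio was −0.35 ± 0.09. The direction for GAS1 therefore turns with the treatment of the overlapping locus. Summed in this way, GAS1 would also stand above BOC in both libraries, with limits that overlap those of BOC with thalidomide and stand apart from them with vehicle.

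SMO, the membrane protein that acts through the primary cilium, showed the largest gap relative to its error. It had 84.6 FPKM (82.8 to 86.3) with thalidomide and 103 FPKM (101 to 105) with vehicle, from 9510 inferred fragments with thalidomide and 11316 with vehicle. The limits stand apart, with the thalidomide library lower, and the log2 ratio was −0.29 ± 0.02. Abundant genes tended to have lower ratios in these libraries: the 514 genes with a mean level within 1.5-fold of that of SMO had a median of −0.20, and 27.8% of them had a lower ratio than SMO. After rescaling to a common FPKM total the SMO ratio was −0.14, and its limits still stood apart. SMO lies on chromosome 1 from 658443 to 664773.

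The transcription factors GLI1, GLI2 and GLI3 were close to equal in both libraries. GLI1, an activator whose transcription serves as a readout of the pathway, had 13.5 FPKM (12.6 to 14.4) with thalidomide and 13.5 FPKM (12.5 to 14.4) with vehicle. GLI2, the main activator, had 15.7 FPKM (15.3 to 16.1) with thalidomide and 15.2 FPKM (14.8 to 15.7) with vehicle. GLI3, the main repressor of the limb bud, had 8.27 FPKM (8.01 to 8.53) with thalidomide and 8.08 FPKM (7.81 to 8.35) with vehicle. For all 3 the limits overlap, and the log2 ratios were 0.01 ± 0.06 for GLI1, 0.04 ± 0.03 for GLI2 and 0.03 ± 0.03 for GLI3. The processing of GLI3 into its repressor form occurs in the protein and is not seen in mRNA.

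Summed, the GLI genes had 37.5 FPKM with thalidomide and 36.8 with vehicle. GLI2 made up 41.9% of this sum with thalidomide and 41.5% with vehicle. GLI1 made up 36.1% with thalidomide and 36.6% with vehicle, and GLI3 made up 22.06% with thalidomide and 21.96% with vehicle. These shares do not depend on the scaling of the libraries. The ratios themselves do: rescaled to a common FPKM total, GLI1 had 0.15, GLI2 0.18 and GLI3 0.17, and the limits of GLI2 and GLI3 then stood apart with the thalidomide library higher. Rescaled instead on the total without mitochondrially encoded and haemoglobin genes, with limits compared on that scale after the data were seen, GLI1 had 0.18, GLI2 0.22 and GLI3 0.20, and the limits of all 3 stood apart as higher. GLI2 lies on chromosome 7 from 25280815 to 25459921, GLI3 on chromosome 2 from 51294122 to 51492490, and GLI1 on the unplaced scaffold JH376285.1 from 37051 to 41406.

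**Figure D2:**
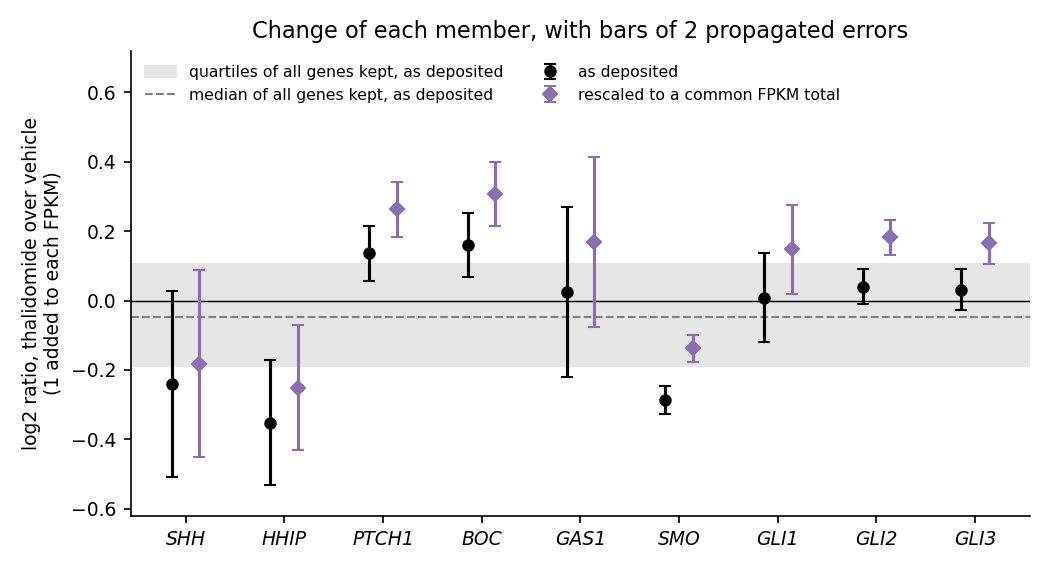
Log2 ratio of thalidomide over vehicle for each member, with 1 added to each FPKM and bars of 2 propagated errors, as deposited (circles) and after rescaling to a common FPKM total (diamonds). The band and dashed line give the quartiles (−0.19 and 0.11) and median (−0.05) of all genes kept, as deposited. PTCH1 and BOC lie above 0, and HHIP and SMO below 0, under both scalings.

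Across the members, 8 of the 9 had at least 1 FPKM in at least 1 library, and SHH did not. Of these 8, the limits stood apart for 4, which were higher with thalidomide for 2 (PTCH1 and BOC) and lower for 2 (HHIP and SMO). Over all 10905 genes kept, the limits stood apart for 42.4%, higher for 15.5% and lower for 26.9%. The share among the members is near this background. One member, HHIP, had a log2 ratio of at least 0.32 in size, as did 14.9% of all genes kept (6.14% higher and 8.71% lower). None of the 8 was 1.5-fold apart on the FPKM + 1 scale, against 1.93% of all genes kept. The median ratio was 0.03 over the 8 members kept and also 0.03 over all 9, and −0.05 over all genes kept.

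Rescaling to a common total moved the median ratio of all genes by 0.13, to 0.08. The limits of 5 members then stood apart, with PTCH1, BOC, GLI2 and GLI3 higher and SMO lower with thalidomide, beside 32.1% of all genes higher and 10.4% lower. The members' median was 0.17 on that scale. On the total without mitochondrially encoded and haemoglobin genes the limits of 6 members stood apart, the same 5 and GLI1, beside 37.7% of all genes higher and 7.72% lower.

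Ratios between members within a library are free of any scaling of the library. They were taken without an added constant for 12 pairs chosen after the values were seen, so they are descriptions. HHIP stood at 0.301 times the level of PTCH1 with thalidomide and at 0.485 times with vehicle, a log2 difference of −0.69 ± 0.14. Relative to GLI1, HHIP was at 0.124 with thalidomide and 0.179 with vehicle (−0.54 ± 0.15). GLI1 per PTCH1 was 2.43 with thalidomide and 2.704 with vehicle, and this difference of −0.15 ± 0.08 was within 2 propagated errors.

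PTCH1 mRNA was higher relative to SMO mRNA, with 0.0658 PTCH1 per SMO in the thalidomide library and 0.0481 in the vehicle library (0.45 ± 0.05). BOC per SMO likewise was 0.360 with thalidomide and 0.262 with vehicle (0.46 ± 0.05). These pairs join genes of unlike level. With 1 added to each FPKM, genes within 1.5-fold of the mean level of SMO had a median log2 ratio of −0.20. The same median was 0.01 around PTCH1 and −0.10 around BOC. The part of level in these pairs was not tested. HHIP per SMO was 0.0198 with thalidomide and 0.0233 with vehicle (−0.24 ± 0.14), within 2 propagated errors. SHH per PTCH1 was 0.0908 with thalidomide and 0.156 with vehicle (−0.78 ± 0.36), the largest of these differences and just past 2 propagated errors. It rests on 28 inferred SHH fragments with thalidomide and 41 with vehicle. Passing 2 propagated errors was common, since 55.8% of all genes kept did so on their own. No share was taken for other pairs of genes. SHH per HHIP was 0.302 with thalidomide and 0.322 with vehicle (−0.09 ± 0.38). The proportions among GLI1, GLI2 and GLI3 differed by at most 0.03 on the log2 scale.

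**Figure D3:**
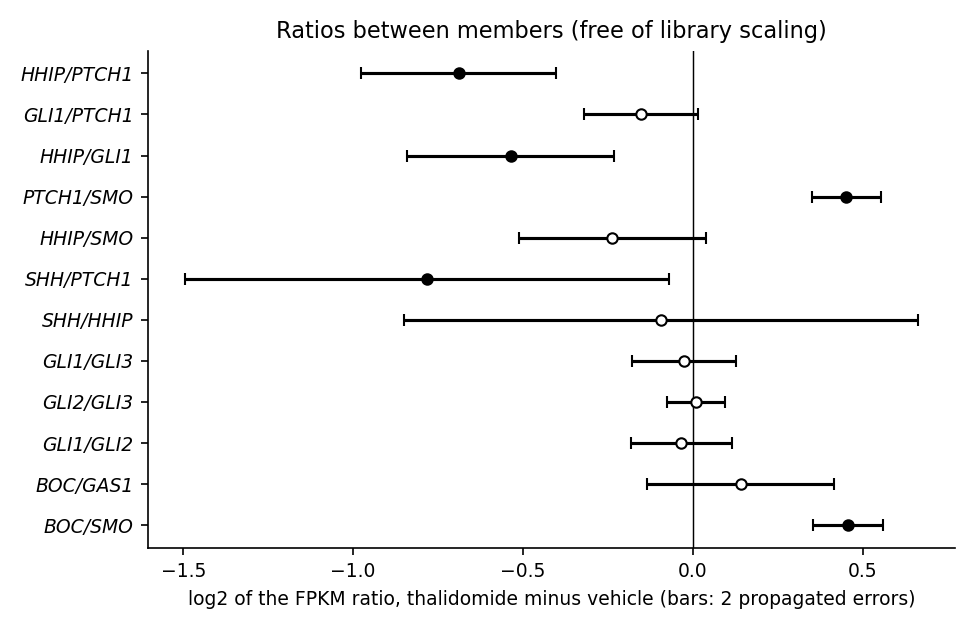
Difference between libraries (thalidomide minus vehicle) in the log2 ratio of pairs of members, with bars of 2 propagated errors; filled points have bars that do not reach 0. HHIP per PTCH1, HHIP per GLI1 and SHH per PTCH1 lie below 0, PTCH1 per SMO and BOC per SMO lie above 0, and the GLI pairs lie at 0.

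Other genes of the pathway were described from 3 lists. The list of genes that induce, maintain or restrict SHH in the limb bud had 28 entries, of which 25 matched a gene and 19 were kept. Limits stood apart for 14 of the 19, or 73.7%, higher with thalidomide for 4 and lower for 10. Over all genes kept they stood apart for 42.4%, higher for 15.5% and lower for 26.9%. The median ratio was −0.15 for the list and −0.05 for all genes kept. With a filter of 5 FPKM, limits stood apart for 13 of 17 (76.5%), beside 50.5% of all genes kept. The part of level in this count was not tested. TWIST1, a mesenchymal factor, was lowest with 60.6 FPKM in the thalidomide library and 86.3 in the vehicle library (−0.50 ± 0.04). FGF10, a growth factor from the mesenchyme that sustains the apical ridge, had 11.4 FPKM with thalidomide and 15.6 with vehicle (−0.42 ± 0.08). ALDH1A2, the enzyme that makes retinoic acid, had 16.5 FPKM with thalidomide and 21.6 with vehicle (−0.37 ± 0.05), and its locus overlaps that of ADAM10. Its inferred fragments, 1389 with thalidomide and 1525 with vehicle, were nearer each other than its FPKM, for a reason not tested.

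The highest ratios of that list were those of GATA6, TBX5 and SALL4. GATA6, which restricts SHH to the posterior margin in mouse, had 1.59 FPKM with thalidomide and 1.11 with vehicle, with overlapping limits (0.30 ± 0.18). TBX5 had 0.22 ± 0.03, and SALL4, a zinc finger factor that thalidomide directs to cereblon for degradation, had 4.98 FPKM with thalidomide and 4.18 with vehicle (0.21 ± 0.06). SALL4 rested on 798 inferred fragments with thalidomide and 759 with vehicle, again nearer each other than its FPKM. FGF8, the ridge signal that sustains SHH, had 0.765 FPKM with thalidomide and 0.775 with vehicle from 19 inferred fragments each. LMBR1, the gene whose intron holds the limb enhancer of SHH, had 10.7 FPKM with thalidomide and 12.0 with vehicle, and the limits overlap. The count of this list depends on the scaling. After rescaling to a common total, limits stood apart for 11 of the 19 (57.9%), 5 higher and 6 lower. The share of all genes kept was then 42.5%, with 32.1% higher and 10.4% lower. The median ratio was −0.01 for the list and 0.08 for all genes kept. On the total without mitochondrially encoded and haemoglobin genes, limits stood apart for 9 (47.4%), 5 higher and 4 lower. There the share of all genes kept was 45.4%, with 37.7% higher and 7.72% lower. The median was 0.03 for the list and 0.12 for all genes kept, so the list's median lay below that of all genes on each scale. On the common total the ratios were −0.23 for ALDH1A2, 0.37 for TBX5 and 0.33 for SALL4.

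The list of ligand release, reception, transduction and cilium genes had 64 entries, of which 54 matched and 51 were kept. Limits stood apart for 17 (33.3%), higher with thalidomide for 5 and lower for 12, and the median ratio was −0.07. Over all genes kept they stood apart for 42.4%, higher for 15.5% and lower for 26.9%. MKS1, a protein of the ciliary transition zone, was highest, with 5.83 FPKM in the thalidomide library and 3.36 in the vehicle library (0.65 ± 0.08). BTRC, the ubiquitin ligase receptor that directs GLI3 processing, had 6.58 FPKM with thalidomide and 4.56 with vehicle (0.45 ± 0.08). DISP1, which releases the lipid-modified ligand from the cells that make it, had 11.7 FPKM with thalidomide and 9.35 with vehicle (0.30 ± 0.04).

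GPC3, a glypican that in mouse competes with PTCH1 for the ligand, was the lowest of this list, with 15.6 FPKM in the thalidomide library and 24.1 in the vehicle library (−0.59 ± 0.05). GRK2, listed in the files as ADRBK1, a kinase that acts on SMO, had −0.26 ± 0.06. EVC, a ciliary partner of SMO whose locus overlaps EVC2, had −0.25 ± 0.06. Both lost the separation of their limits on rescaling, while MKS1, BTRC, DISP1 and GPC3 kept it. The third coreceptor, CDON, was chosen for mention after its value was seen. It had 44.4 FPKM with thalidomide and 44.5 with vehicle, and SUFU, the cytoplasmic inhibitor of GLI proteins and likewise so chosen, had 22.9 FPKM with thalidomide and 22.4 with vehicle. On the values rescaled to a common FPKM total CDON had a ratio of 0.14 and SUFU 0.17, both with limits apart. The split of this list was then 17 higher and 2 lower (37.3% apart), beside 32.1% of all genes kept higher and 10.4% lower. Its balance thus changes with the scaling, as does that of all genes.

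The list of genes known to respond to SHH or GLI activity, in the limb or in other tissues, had 28 entries, of which 25 matched and 21 were kept. Limits stood apart for 7 (33.3%), higher with thalidomide for 0 and lower for 7, with a median ratio of −0.05, equal to that of all genes kept. Over all genes kept the limits stood apart for 42.4%, higher for 15.5% and lower for 26.9%. OSR2, a zinc finger factor of connective tissue and joints, was lowest with 23.3 FPKM in the thalidomide library and 34.3 in the vehicle library (−0.54 ± 0.03). Its relative OSR1 had 4.45 FPKM with thalidomide and 5.996 with vehicle (−0.36 ± 0.12). HOXD13, the most posterior gene of the HOXD cluster, had 222 FPKM with thalidomide and 264 with vehicle (−0.25 ± 0.04), and the T-box gene TBX3 had 47.2 FPKM with thalidomide and 55.9 with vehicle (−0.24 ± 0.02). HOXD13, TBX3 and HOXD12 are also among the lower genes of the list upstream of SHH, so the counts of these lists share genes. Abundant genes tended to have lower ratios: the median was −0.20 among genes within 1.5-fold of the mean level of SMO. No such median was taken at the levels of HOXD13 and TBX3.

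GREM1, the BMP antagonist that links SHH to the ridge, had the highest ratio of these genes, with 2.05 FPKM from 66 inferred fragments in the thalidomide library and 1.62 FPKM from 52 in the vehicle library, and its limits overlap (0.22 ± 0.17). TBX2 had 0.09 ± 0.05 and SALL1 0.06 ± 0.03, both with overlapping limits. BMP2, a target in the posterior mesenchyme, had 22.6 FPKM with thalidomide and 22.8 with vehicle. FGF4, a ridge growth factor that SHH maintains, rested on 1 inferred fragment with thalidomide and is listed at 0 with vehicle. HOXA11 and HOXA13 are listed at 0 in both libraries. Whether such a 0 means absent RNA or a fault of annotation or counting was not tested. HAND2 matched no gene in the files by symbol or former symbol, so no value is given for it. Whether a row without a symbol holds it was not tested. After rescaling to a common total, limits stood apart for 5 genes of the list (23.8%), 3 higher and 2 lower. This is beside 32.1% of all genes kept higher and 10.4% lower. OSR2 and TBX3 were the lower ones, TBX3 at −0.09. OSR1 (−0.23) and HOXD13 (−0.10) then had overlapping limits, TBX2 (0.24) and SALL1 (0.20) stood apart as higher, and BMP2 (0.13) had a ratio above 0 with overlapping limits.

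**Figure D4:**
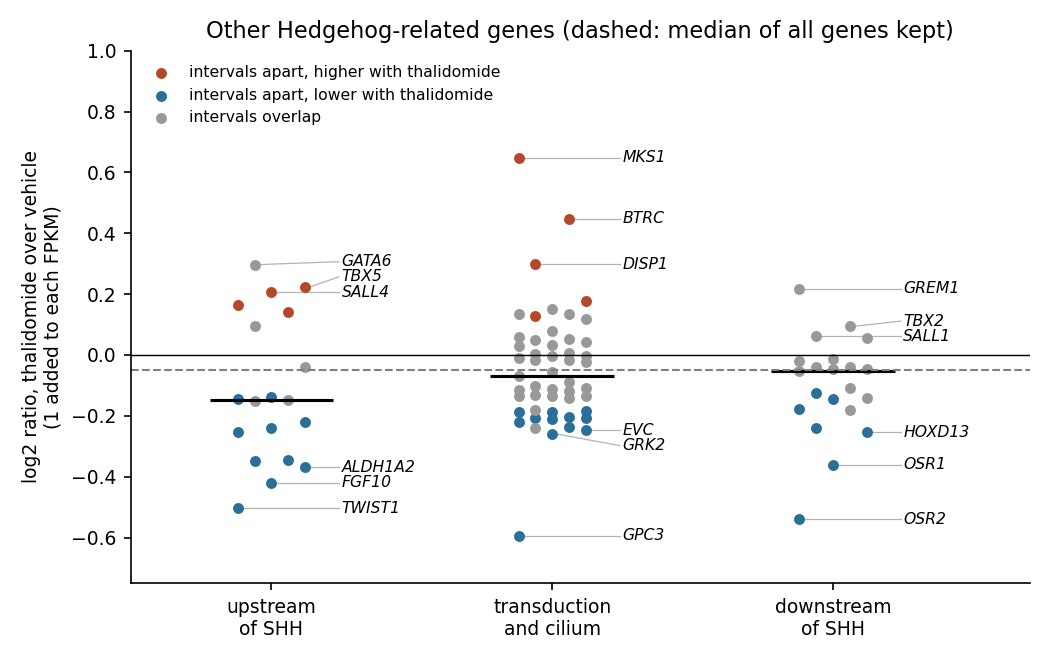
Log2 ratio of thalidomide over vehicle (1 added to each FPKM) for genes kept from the 3 lists, coloured by whether the deposited limits of the libraries stand apart; bars give each list's median and the dashed line the median of all genes kept. Labelled are the 3 highest and 3 lowest genes of each list, from GPC3 (−0.59) to MKS1 (0.65).

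Markers of other tissues were compared as well, and the sums and counts below are of FPKM as deposited. For all genes kept, limits stood apart as higher with thalidomide for 15.5% and as lower for 26.9%. The markers matched include some below 1 FPKM, and their counts were not taken after rescaling. The 8 limb mesenchyme markers matched summed to 601 FPKM with thalidomide and 709 with vehicle, and limits stood apart as higher with thalidomide for 2 (TBX5 and TBX4) and as lower for 3 (PRRX1, MSX1 and TWIST1). For ectoderm and ridge (7 matched) the sum was 60.5 FPKM with thalidomide and 77.4 with vehicle, with 0 higher and 3 lower. The 9 blood markers matched summed to 637 FPKM with thalidomide and 484 with vehicle, with 5 higher, 0 lower and 1 listed at 0 in both libraries. Endothelial markers (6 matched) summed to 35.3 FPKM with thalidomide and 41.2 with vehicle, with 1 higher (KDR) and 3 lower. Muscle precursor markers (5 matched) summed to 33.5 FPKM with thalidomide and 36.3 with vehicle, with 0 higher and 1 lower (MYOD1). Neural markers (5 matched) summed to 68.3 FPKM with thalidomide and 83.4 with vehicle, with 0 higher and 2 lower, and cartilage markers (5 matched) to 572 with thalidomide and 676 with vehicle, with 0 higher and 4 lower. Rescaled to a common FPKM total, the muscle sum was 35.3 with thalidomide and 34.5 with vehicle and so changed direction, as did that of notochord and floor plate, while the other 6 sums kept theirs. The part of these tissues in the values of the pathway genes was not tested.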

How the data were processed

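Messenger RNA was measured in 2 libraries of chick limb bud, 1 per treatment. The authors deposited 1 table per library with an FPKM and its lower and upper limit for each gene, per the file headers. Tools named in the submitters' processing notes, without their roles, are STAR 2.4.2a, Cufflinks 2.2.1, Cuffdiff and bcl2fastq, and the genome build is galGal4. Annotation release, strand setting and read length: not given in the sources used here.

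Rows of the same symbol were summed with variances added, and a gene was kept where either library had at least 1 FPKM. Log2 ratios were taken after adding 1 FPKM. Limits were symmetric, so the distance of the upper limit from the value was read as 2 SD. Limits of both libraries that do not overlap are said to stand apart. Locus starts in the files count from 0, since 599 of 952 loci of 300 to 1200 bases then have a length divisible by 3 against 171 otherwise, and 1 was added to each start.

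The members and lists were chosen with earlier results of these data known. All members are named, and of each list the 3 highest and 3 lowest ratios plus GREM1, FGF4, BMP2, HAND2, HOXD13 and TBX3. Not every gene that the naming rule picks is reported here. FGF8, LMBR1, CDON, SUFU, HOXA11, HOXA13 and HOXD12 were named after their values were seen. Symbols of the 3 pathway lists were matched to the files by symbol or, for 2 genes, by a former symbol listed by RefSeq for GRCg7b, and 7 genes are in more than 1 list. Alternatives were another constant, scaling, row choice, interval rule or filter. Work was done in Python 3.11.15 with pandas 2.3.3.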

Additional observations from a re-analysis of the deposited data

How the results depend on the processing

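No paired analysis was possible because each treatment had 1 library, and for the same reason no library could be left out. The number of members with a log2 ratio of at least 0.32 in size was 1 (HHIP) as deposited. It was 0 after centring on the median of all genes, 0 after rescaling to a common FPKM total and 0 with a filter of 5 FPKM, which removes HHIP. It was 1, BOC in place of HHIP, after rescaling on the total without mitochondrial and haemoglobin genes. With GAS1 summed with its overlapping locus, GAS1 (−0.35) reached that size beside HHIP. Of all genes kept, 14.9% reached that size as deposited, 14.4% after centring and 17.4% on the common total. It was reached by 15.1% with the filter of 5 FPKM and by 14.9% with GAS1 summed. Without mitochondrial and haemoglobin genes in the total, 20.3% reached it. The members' median log2 ratio, 0.03 as deposited, was 0.17 after rescaling to a common total and 0.20 after rescaling on the total without mitochondrial and haemoglobin genes. The median of all genes kept moved with it, from −0.05 as deposited to 0.08 and 0.12 on these totals. The number of members whose limits stand apart was 4 of 8 as deposited. It ranged from 3 of 7 with a filter of 5 FPKM to 6 of 8 after rescaling without mitochondrial and haemoglobin genes. The latter comparison of limits was added after the data were seen. The number was 5 of 8 after rescaling to a common total or with GAS1 summed with its overlapping locus. It was 4 of 8 when a difference over 2 propagated errors was asked for. Among all genes kept, limits stood apart for 42.4% as deposited, 50.5% with the filter of 5 FPKM and 45.4% without mitochondrial and haemoglobin genes. These shares were 42.5% on the common total, 42.4% with GAS1 summed and 55.8% over 2 propagated errors. The comparison without mitochondrial and haemoglobin genes also gave 9 genes apart in the list upstream of SHH (14 as deposited). It gave 4 in the list downstream (7 as deposited) and 19 in the transduction list (17 as deposited). These are 47.4%, 19.0% and 37.3% of the genes kept from each list, beside the 45.4% of all genes kept. By direction they were 5 higher and 4 lower upstream, 3 and 1 downstream, and 18 and 1 for transduction. Over all genes kept, 37.7% were higher and 7.72% lower. PTCH1 and BOC had ratios above 0 (0.14 to 0.30 and 0.16 to 0.34) under every setting run. This could not have come out otherwise, since centring and both rescalings raised the members' ratios. The other settings cannot turn the sign of these genes. HHIP and SMO had ratios below 0 (−0.50 to −0.23 and −0.29 to −0.10) under every setting, and for them only centring and rescaling could have turned it. Depth limits SHH, with 28 and 41 inferred fragments with thalidomide and with vehicle, and scaling limits any statement on GLI1, GLI2 and GLI3.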
